A study of Homo sapiens with 8 samples.

Results

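Gene-dense chromatin outside chromosome 19 was examined as the open regions that lay in windows rich in protein-coding genes. Chromosomes 1 to 18 and 20 to 22 were cut into windows of 1 Mb, and a window was taken as gene-dense when the midpoints of at least 25 RefSeq protein-coding genes fell in it. There were 101 such windows on 18 chromosomes, and chromosomes 10, 13 and 18 had none. They held 7567 of 129536 deposited peaks, which is 5.84% of all peaks and 6.23% of the 121366 peaks on the 21 chromosomes used. A peak was called a gene-end peak when a RefSeq gene started or stopped within 1 kb of it, a peak elsewhere in a gene was called inside a gene, and the remainder were intergenic. By this division the gene-dense windows held 3359 gene-end peaks, 2876 peaks inside genes and 1332 intergenic peaks.

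Open chromatin was profiled with the Omni-ATAC protocol in HEK293 cells, a line from human embryonic kidney. The genotype field and the series design read eGFP-YAP, a fluorescent tag on the transcriptional coactivator YAP. The sample titles name HEK293 alone, and the library names say wt. The labels therefore conflict on whether the cells carried the tag. The vehicle group and the sorbitol group each had 4 libraries, the latter from cells kept in 0.2 M sorbitol for 1 h, a sugar alcohol that makes the medium hyperosmotic so that cells shrink. The library names give 0 h for the vehicle group, while the protocol has untreated cells collected in parallel, so whether the vehicle was held for the same time as sorbitol is not given in the sources used here. The series description adds that cells were starved of serum for 1 h beforehand. Neither separate cultures nor clones are named for the replicates, so the p-values measure the spread between these libraries only.

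Gene-dense chromatin is rich in GC bases, housekeeping genes and active promoters, replicates early and tends to lie in the nuclear interior, whereas gene-poor chromatin is often condensed at the nuclear lamina. In ATAC-seq a transposase cuts DNA that is not wrapped in nucleosomes, so the count of a peak reflects how often the region is open. Some gene-dense windows are instead filled by tandem families, such as olfactory receptor or keratin genes, which most cell types keep closed.

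The promoters below show the range of sequence behind the gene-end results. They comprise a peak that rose after sorbitol (TRIM72), peaks that fell (C12orf57, VPS9D1, MRPL9 and RPS26) and peaks of gene clusters that did not pass the test (HLA-C and PCDHGC4). Each is the 250 bases before the first listed start of the gene, 5′ to 3′ on the gene's strand, from RefSeq on GRCh38.p14. Capitals mark the GC box GGGCGG and the CCAAT box on either strand (CCGCCC and ATTGG in reverse), which do not overlap each other here.
TRIM72: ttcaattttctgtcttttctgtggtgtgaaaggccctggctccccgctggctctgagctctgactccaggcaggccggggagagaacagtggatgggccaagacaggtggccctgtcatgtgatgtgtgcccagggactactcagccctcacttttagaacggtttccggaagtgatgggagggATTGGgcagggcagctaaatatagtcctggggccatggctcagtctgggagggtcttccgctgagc
C12orf57: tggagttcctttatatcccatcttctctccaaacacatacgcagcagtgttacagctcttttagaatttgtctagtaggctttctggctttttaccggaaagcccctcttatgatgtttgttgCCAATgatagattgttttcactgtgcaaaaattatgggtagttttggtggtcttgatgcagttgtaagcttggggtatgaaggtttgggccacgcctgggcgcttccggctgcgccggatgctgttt
VPS9D1: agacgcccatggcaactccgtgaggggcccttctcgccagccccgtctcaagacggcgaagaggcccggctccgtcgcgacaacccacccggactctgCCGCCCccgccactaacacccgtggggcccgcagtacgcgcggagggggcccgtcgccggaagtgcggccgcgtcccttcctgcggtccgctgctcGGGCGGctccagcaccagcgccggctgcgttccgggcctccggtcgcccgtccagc
MRPL9: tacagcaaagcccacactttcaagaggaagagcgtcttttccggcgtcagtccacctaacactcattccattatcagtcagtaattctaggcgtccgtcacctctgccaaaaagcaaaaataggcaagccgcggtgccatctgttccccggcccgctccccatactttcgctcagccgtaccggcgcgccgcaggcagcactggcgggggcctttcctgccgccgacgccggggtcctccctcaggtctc
RPS26: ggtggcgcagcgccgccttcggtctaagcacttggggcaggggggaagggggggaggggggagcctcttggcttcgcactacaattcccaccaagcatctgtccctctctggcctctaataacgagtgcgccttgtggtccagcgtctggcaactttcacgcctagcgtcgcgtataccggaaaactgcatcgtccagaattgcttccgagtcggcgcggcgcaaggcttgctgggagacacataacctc
HLA-C: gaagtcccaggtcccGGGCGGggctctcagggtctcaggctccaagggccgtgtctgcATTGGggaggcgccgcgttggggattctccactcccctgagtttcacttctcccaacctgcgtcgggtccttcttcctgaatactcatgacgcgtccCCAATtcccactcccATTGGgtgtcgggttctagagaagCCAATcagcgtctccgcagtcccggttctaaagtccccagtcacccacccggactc
PCDHGC4: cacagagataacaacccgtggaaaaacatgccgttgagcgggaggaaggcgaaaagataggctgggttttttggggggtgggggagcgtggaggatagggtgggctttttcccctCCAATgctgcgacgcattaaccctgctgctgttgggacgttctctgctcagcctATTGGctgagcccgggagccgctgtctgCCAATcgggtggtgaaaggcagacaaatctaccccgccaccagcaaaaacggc
The stretches lie at chr16:31213869-31214118, chr12:6943772-6944021, chr16:89720899-89721148 (reverse strand), chr1:151763497-151763746 (reverse strand), chr12:56041668-56041917, chr6:31272093-31272342 (reverse strand) and chr5:141484780-141485029. Of the TRIM72 stretch 215 bases lay in its peak, and the others lay in theirs completely. Among all 35116 promoter stretches of the same length in the table, 42.6% held a GC box and 32.0% a CCAAT box, and the median number of CpG sites was 11. VPS9D1 had 35 CpG sites and 2 GC boxes, whereas C12orf57 had 7 CpG sites and TRIM72 had 5. MRPL9 had 20 CpG sites and RPS26 had 19. Of the printed promoters that fell, C12orf57 alone thus lay below the median number of CpG sites. Its peak also lay at an end of another gene, RNU7-1, so its stretch may not stand for a protein-coding promoter alone. Promoter stretches were found for 2564 of the 3412 protein-coding genes of the gene-dense windows (75.1%), under the 80% needed for a comparison of base content over the set, so that comparison is void.

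Libraries held between 14757015 and 19831471 counts in the vehicle group and between 11522266 and 14355727 in the sorbitol group, so depth moved with the treatment, and its part in the results was not tested. Between 900159 and 1891828 of the counts of a library lay in the gene-dense windows. Vehicle 4 and sorbitol 4 stood apart from the other libraries of their groups in an index of 477 peaks on unplaced contigs, the median log2 deviation of their CPM, the count of a peak scaled by the total of its library. The index was 0.35 in vehicle 4 and between -0.30 and -0.07 in the other vehicle libraries. In sorbitol 4 it was -0.31, and it lay between 0.08 and 0.29 in the other sorbitol libraries. Among genes taken as HEK293 markers, gene-end peaks were present at KRT18, KRT8, VIM, NEFM and INA, but not at PAX2. Of 6 genes of other lineages, MYOD1, CDX2 and PTPRC had gene-end peaks, that of the leukocyte gene PTPRC at only 1.16 CPM. Loss of opening in some cells and a smaller loss in all cells cannot be told apart in these bulk libraries.

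Peaks of gene-dense windows were mostly lower after sorbitol. In edgeR's quasi-likelihood test, with p-values adjusted by Benjamini-Hochberg over all 129487 tested peaks, 3039 of 7565 tested members fell (40.2%), 372 rose (4.92%) and 4154 passed in neither direction. Of all tested peaks 13.1% were lower and 16.0% were higher. The median log2 fold change of the members, sorbitol over vehicle, was -0.31 with quartiles of -0.55 and -0.04, against 0.05 for the 113759 tested peaks of other windows on the same chromosomes. Without vehicle 4 and sorbitol 4, 3039 members were lower and 348 higher. Within the members, large changes were less one-sided in number, with 205 of the 7565 falling and 103 rising at least 2-fold. Over all 129487 tested peaks, changes of that size went mostly the other way. There 1141 fell (0.881%) and 6826 rose (5.27%).

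The shift was present in each place. Among gene-end peaks 1887 fell (56.2%) and 104 rose (3.10%), with a median of -0.38. Among peaks inside genes 803 fell (27.9%) and 186 rose (6.47%), with a median of -0.26. Of intergenic peaks 349 fell (26.2%) and 82 rose (6.16%), with a median of -0.23. In other windows 27.0% of gene-end peaks, 6.87% of peaks inside genes and 6.82% of intergenic peaks were lower, and the medians were -0.13, 0.09 and 0.08. The order of the places depended on the scaling: with a loess offset, which scales a library by the abundance of each peak, the gene-dense medians were -0.28, -0.29 and -0.28 in the order named, and 1595 gene-end peaks were lower and 155 higher. The gene-dense windows of chromosome 19 had medians of -0.53, -0.42 and -0.35 in the same order of places with the main scaling.

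Gene starts and gene stops could be compared where the promoter table gave a gene's strand. Strand was known for 27305 of 59792 RefSeq genes. A stop-only peak may therefore lie at the start of a gene of unknown strand, and a start-only peak at such a stop. Of 1591 gene-end peaks at a start only, 61.1% were lower, with a median of -0.38. Of 428 at a stop only, 47.4% were lower, with a median of -0.41. In other windows the stop-only peaks had a median of -0.08 and 18.6% were lower, while the start-only peaks had a median of -0.15 and 32.3% were lower. The median mean count of peaks in gene-dense windows was 80.0 at stops only and 295 at starts only. Ends of protein-coding genes gave 59.4% lower peaks, and ends of other genes alone, such as tRNA genes, pseudogenes and long non-coding RNA genes, gave 44.0%. Their medians were closer, at -0.38 and -0.34, while their median mean counts were 244 and 98.0. In other windows 33.3% and 16.6% were lower. Whether the 2 kinds of end differed at equal strength was not tested.

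The choice of scaling moved the level. Libraries were scaled with TMM factors (trimmed mean of M-values) over all tested peaks. When only gene-end peaks set the TMM factors, which was tried after the data had been seen, the median of all peaks moved from 0.01 to 0.19. The members then had 1996 lower and 706 higher peaks, so that 26.1% of the called members were higher in place of 10.9%, and their median was -0.13 against 0.22 in other windows. With factors from contig peaks, also chosen after seeing the data, 1186 members were lower and 130 higher, and the median was -0.36. One factor per library moves all peaks of a library alike, so the difference in medians between the members and other windows, -0.35, is little touched by such factors. With the loess offset it was -0.30.

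The share of counts that each library placed in gene-dense windows does not depend on the scaling. Of the counts on the 21 chromosomes, the vehicle libraries placed 10.8%, 10.9%, 10.4% and 10.3% in gene-dense windows. The sorbitol libraries placed 8.73%, 8.79%, 8.46% and 8.61% there. Every sorbitol library lay below every vehicle library. The means were 10.6% ± 0.312 and 8.65% ± 0.144 (SD, n = 4), a difference of -1.95 percentage points with an exact two-sided permutation p of 0.0286, the smallest this design allows.

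The same test was made within each place, so that gene-dense windows were compared with other windows for one kind of peak. The gene-dense share of gene-end counts was 15.1%, 15.1%, 14.5% and 14.6% in vehicle and 13.1%, 12.9%, 12.6% and 12.5% after sorbitol. For peaks inside genes it was 6.60%, 6.57%, 6.25% and 6.38% in vehicle and 5.24%, 5.26%, 5.11% and 5.05% after sorbitol. For intergenic peaks it was 5.11%, 5.23%, 5.03% and 4.58% in vehicle and 3.97%, 4.04%, 3.91% and 4.17% after sorbitol. The groups did not overlap in any of the 3 places. Each exact two-sided permutation p was 0.0286, for differences of -2.05, -1.29 and -0.965 percentage points. Vehicle 4 and sorbitol 4, the libraries with extreme contig indices, were the closest pair for intergenic peaks, and without both the intergenic difference was -1.15 percentage points (exact p = 0.100, the smallest possible with 3 against 3).

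**Figure D1:**
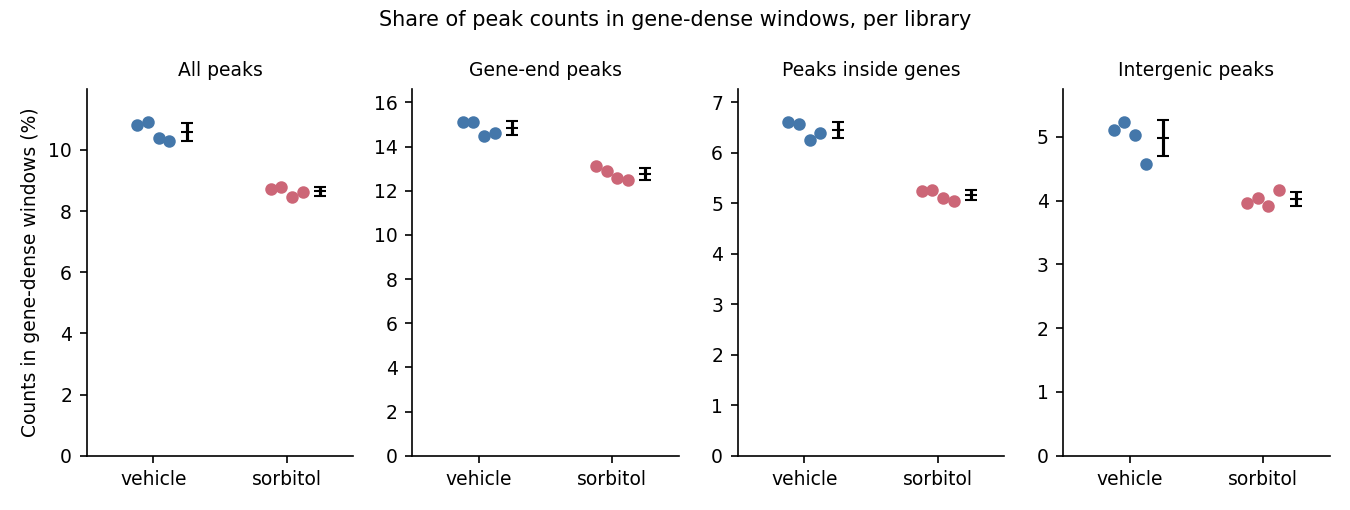
Percentage of peak counts (vertical axes, from 0) that lay in gene-dense windows, for all peaks of the 21 chromosomes and within each place. Points are libraries, 4 per group, and the black bars are mean and SD. In each panel the 4 sorbitol libraries lie below the 4 vehicle libraries, from 8.46% to 8.79% against 10.3% to 10.9% for all peaks.

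Gene-dense windows also held stronger and wider peaks, with a median mean count of 79.1 and a median width of 483 bp, against 41.9 and 395 bp elsewhere. From the weakest to the strongest decile of mean count, the share of lower peaks went from 8.01% to 77.4% in gene-dense and from 2.24% to 37.6% in other windows. The comparison was therefore repeated within these deciles. In each of the 10 deciles and in each place the median of gene-dense peaks lay below that of other peaks. In the weakest decile the medians inside genes were -0.20 and 0.27, and in the strongest they were -0.38 and -0.04. At gene ends they were -0.16 and 0.08 in the weakest decile and -0.43 and -0.17 in the strongest. At equal strength, the log2 level of gene-dense peaks relative to other peaks was lower in sorbitol than in vehicle libraries by -0.233 at gene ends, -0.323 inside genes and -0.293 between genes. These measures and the 4 shares made a family of 7. The groups did not overlap in any place, and each raw and Benjamini-Hochberg adjusted exact two-sided permutation p was 0.0286 (n = 4 per group). The relative level was 0.161 ± 0.0388 in vehicle and -0.163 ± 0.0414 after sorbitol inside genes (SD), each as a deviation from the mean of all libraries.

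**Figure D2:**
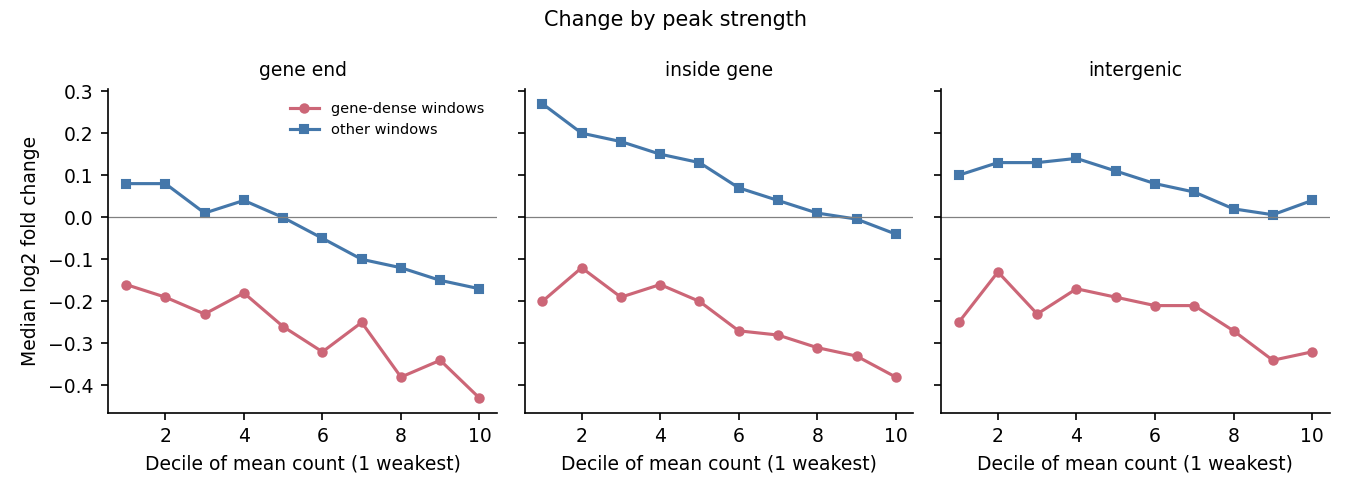
Median log2 fold change (vertical axis, sorbitol over vehicle) of peaks in gene-dense windows (circles) and other windows of the same chromosomes (squares), by decile of mean count from weakest to strongest, in 3 places. The gene-dense median is below the other in every decile and place, and inside genes it runs from -0.20 in the weakest decile to -0.38 in the strongest.

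The change followed gene density over its whole range, and the limit of 25 genes marked no step. The median of peaks inside genes was 0.26 in the windows without a protein-coding gene midpoint, 0.10 with 5 to 9 genes, -0.11 with 15 to 19 genes and -0.32 with 40 to 64 genes. For intergenic peaks the corresponding medians were 0.21, 0.04, -0.09 and -0.30. At gene ends they were 0.04, -0.09, -0.26 and -0.41. The share of lower peaks went from 11% to 58.6% at gene ends, from 2.34% to 34.7% inside genes and from 2.15% to 33.3% between genes, from the gene-free to the densest windows. Just outside the limit, 27 windows of 23 or 24 genes had 31.8% lower peaks. Just inside it, 19 windows of 25 or 26 genes had 33.5%.

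**Figure D3:**
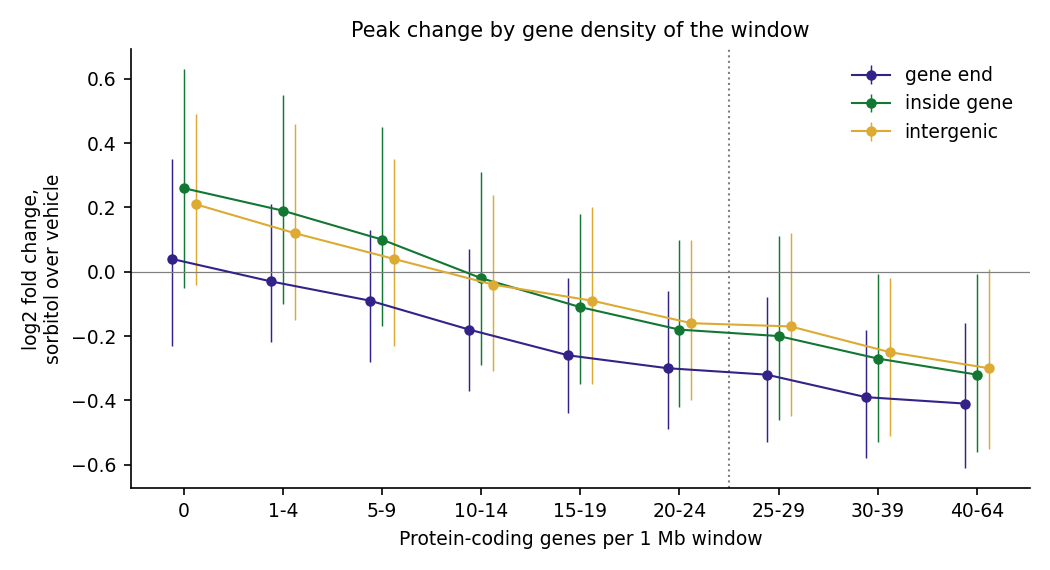
Median log2 fold change with quartiles (vertical axis, sorbitol over vehicle) of peaks grouped by the number of protein-coding genes in their 1 Mb window (horizontal axis), for gene-end, inside-gene and intergenic peaks. The dotted line marks the limit of 25 genes. All 3 medians go down from the gene-free windows (0.04, 0.26 and 0.21) to the densest ones (-0.41, -0.32 and -0.30).

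Within gene-dense windows a smaller share of peaks was lower far from the nearest gene end than close to it. Of peaks inside genes, 32.1% were lower at 1 to 2 kb from an end, 35.2% at 2 to 5 kb, 25.4% at 5 to 10 kb, 22% at 10 to 20 kb and 20.6% at 20 to 50 kb. Over the same steps the medians were -0.28, -0.29, -0.24, -0.22 and -0.25, and the median mean count went from 62.4 to 37.4. Only 45 lay beyond 50 kb, and 6.67% of these were lower, with a median of -0.06. Intergenic peaks gave 35.3%, 29.2%, 21.2%, 21.0% and 17.9% over the same steps up to 50 kb. Their medians were -0.30, -0.27, -0.21, -0.16 and -0.25. In other windows the share inside genes was 13.2% at 1 to 2 kb and 5.38% at 20 to 50 kb. For intergenic peaks of other windows these shares were 12.8% and 5.71%.

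Nearly all gene-dense windows were lower as a whole. When edgeR's test was applied to the summed counts of 2923 windows of all chromosomes, 94 of the 101 gene-dense windows fell, while 40.3% of all tested windows were lower and 22% higher. None of the 101 rose, at an adjusted or at an unadjusted p under 0.05. DESeq2 called 93 lower and 0 higher, with 1 higher at an unadjusted p under 0.05. Of the 2602 tested windows of the same chromosomes that were not gene-dense, 36.9% were lower and 24.3% higher. The log2 fold changes of the 101 windows ranged from -0.58 to -0.00457, with a median of -0.36, against -0.04 in the other windows and -0.50 in the 32 gene-dense windows of chromosome 19. In 89 of the 101 every sorbitol library lay below every vehicle library in CPM, which was so for 26.8% of all windows. With TMM factors from contig peaks the median was -0.42 but 0 of the 101 passed the adjusted threshold, the smallest adjusted p being 0.128, and 56 had an unadjusted p under 0.05. Without vehicle 4 and sorbitol 4, 99 of the 101 were lower.

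Within windows the places were mostly lower together. The median gene-end peak was below 0 in 97 of 100 windows, the median peak inside genes in 85 of 100 and the median intergenic peak in 91 of 101. All 3 medians were below 0 in 82 of the 100 windows that held all 3 places. These counts were not made for other windows. Of single member peaks 84.6%, 72.8% and 72.7% had a log2 fold change below 0, in the same order of places. Among all tested peaks the shares were 68.4%, 44.0% and 44.6%. With gene-end factors 78 of the 101 windows were lower and 6 higher.

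The window with the most genes was chr17:7000001-8000000, with 64 protein-coding genes, 53 of them with a gene-end peak. Its peaks summed to 1567, 1582, 1437 and 1403 CPM in vehicle 1 to 4 and to 1211, 1198, 1152 and 1139.8 CPM in sorbitol 1 to 4. All sorbitol libraries lay below all vehicle libraries, for a log2 fold change of -0.43 ± 0.05 (SE; edgeR adjusted p = 1.57e-06). In chr16:1-1000000, at the tip of the short arm, with 55 genes, the sums were 1107, 1081, 1041 and 1102 CPM in vehicle and 770.2, 807, 769 and 774 CPM after sorbitol. This was the window with the smallest p-value (log2 fold change -0.56 ± 0.04, adjusted p = 1.02e-08), and 68 of its 115 peaks fell while 2 rose.

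The part of the major histocompatibility complex in chr6:31000001-32000000, with 57 genes, had 1134, 1161, 1079.8 and 1048 CPM in vehicle and 899, 892, 865 and 884 CPM after sorbitol (-0.40 ± 0.04, adjusted p = 7.62e-07). In chr11:1-1000000, with 50 genes, the sums were 1007, 998, 975 and 1004 CPM in vehicle and 815, 818, 767 and 777 CPM after sorbitol (-0.41 ± 0.04, adjusted p = 1.10e-07). Both windows had non-overlapping groups. Other chromosome ends were among the windows with the smallest p-values. In chr20:63000001-64000000 the sums were 738, 734, 707 and 723 CPM in vehicle and 559, 567, 557 and 521 CPM after sorbitol (-0.48 ± 0.04, adjusted p = 1.64e-08). In chr16:89000001-90000000 they were 1060.4, 1038, 1013 and 1021 CPM in vehicle and 784, 796, 758 and 756 CPM after sorbitol (-0.50 ± 0.04, adjusted p = 2.10e-08). Again the groups did not overlap.

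Windows with many keratin genes, which form the intermediate filaments of epithelia and hair, included some that fell and 1 that did not pass the test. The sums cover all peaks of a window, those of its other genes included. Of 14 tested gene-end peaks of keratin genes in gene-dense windows, 1 fell and 2 rose. In chr17:41000001-42000000 48 of 61 genes were keratin or keratin-associated genes and 15 of the 61 had a gene-end peak. Its sums were 494, 487, 461 and 453 CPM in vehicle and 359, 348, 343 and 337 CPM after sorbitol (-0.53 ± 0.04, adjusted p = 1.20e-08). The adjacent window chr17:40000001-41000000, with 14 keratin or keratin-associated genes of 30, had the lowest median peak, -0.58. It had sums of 351, 373, 337 and 336 CPM in vehicle against 261, 262, 238 and 238 CPM after sorbitol (-0.57 ± 0.05, adjusted p = 3.26e-08). Vehicle and sorbitol libraries were separate in both. On chromosome 21 the window chr21:30000001-31000000, with 32 keratin-associated genes of 34, gave -0.25 ± 0.07 (adjusted p = 0.00727) with overlapping groups, and chr21:44000001-45000000, with 16 of 32, gave -0.32 ± 0.03 (adjusted p = 1.56e-07) with separate ones. The keratin cluster in chr12:52000001-53000000, with 27 keratin genes of 31, did not pass the test. It had 479, 477, 471 and 472 CPM in vehicle and 474, 487, 469 and 487 CPM after sorbitol (-0.07 ± 0.03, adjusted p = 0.0825), and the groups overlapped.

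Clusters of olfactory receptors, the odorant receptors of the nose, likewise gave both outcomes. The window chr11:124000001-125000000, with 15 olfactory receptor genes of 29, had the highest median peak, 0.07. Its sums were 438, 442, 463 and 434 CPM in vehicle and 454, 472, 468 and 482 CPM after sorbitol, and the groups overlapped. The log2 fold change was -0.00457 ± 0.04 (adjusted p = 0.919). This value turned direction with the scaling, to 0.17 with gene-end factors (adjusted p = 3.25e-05) and 0.08 with library totals alone (adjusted p = 0.0245). The window chr11:5000001-6000000, with 30 olfactory receptor genes of 42 and gene-end peaks at 5 genes, fell. It had 52.4, 57.7, 57.1 and 58.8 CPM in vehicle and 52.2, 46.1, 50.5 and 49.1 CPM after sorbitol (-0.27 ± 0.06, adjusted p = 7.07e-04), and the highest sorbitol library lay just below the lowest vehicle library.

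Besides the chr12 keratin window and chr11:124000001-125000000, 5 other windows did not pass the test. These were named after their values were seen. They comprised chr2:218000001-219000000 (-0.04 ± 0.04) and its neighbour chr2:219000001-220000000 (-0.09 ± 0.04), in which 23 of 27 and 26 of 29 genes had a gene-end peak. The window chr5:141000001-142000000, with 38 clustered protocadherin genes of 49, gave -0.04 ± 0.04. In the olfactory receptor windows chr11:6000001-7000000 and chr11:56000001-57000000 the values were -0.09 ± 0.04 and -0.06 ± 0.31, the latter from a single peak. Windows that passed and windows that did not thus both included open and closed gene clusters.

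Windows fell at low and at high shares of genes with a gene-end peak. In the 8 windows with at least 2 tested peaks in which under 30% of genes had a gene-end peak, 49 of 305 genes had one. Of these windows 7 hold olfactory receptor, keratin or epidermal clusters, and all 8 were picked out after the data were seen. Of the 8, 7 fell and the median was -0.25. Below 60% of genes with a peak, 17 of 21 windows were lower with a median of -0.32. At 60 to 90% it was 62 of 65 windows with a median of -0.37, and at 90% or more 15 of 15 with a median of -0.40. Across the 98 windows with at least 20 tested peaks, Spearman's rho with the log2 fold change was -0.213 for the share of genes with a peak and -0.220 for the number of genes, given as a description since the windows share libraries and depth.

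**Figure D4:**
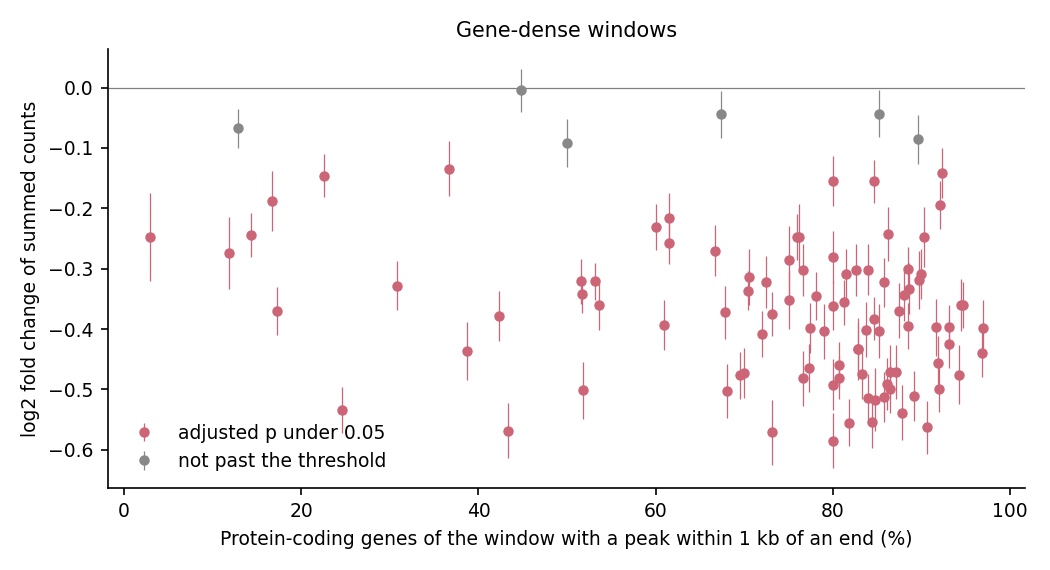
Log2 fold change of summed counts (vertical axis, sorbitol over vehicle, with SE) of the 100 gene-dense windows with at least 2 tested peaks against the percentage of their protein-coding genes with a peak within 1 kb of an end. Red windows passed an adjusted p of 0.05 and grey ones did not. All 100 lie below 0, from -0.58 to -0.00457, at low and high percentages alike.

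Gene families of the gene-dense windows were described by their gene-end peaks, which can also serve a neighbouring gene. Among families that most cells keep active, most tested peaks fell. Of 20 tested peaks at cytosolic ribosomal protein genes 16 fell (80.0%), with a median of -0.47. Of 24 at genes of the mitochondrial ribosome 21 fell (87.5%), with a median of -0.49. For complex I of the respiratory chain 8 of 8 fell, with a median of -0.50, and for the proteasome, the protein-degrading complex, 13 of 17 fell, with a median of -0.51. The share of lower peaks among all gene-end peaks of gene-dense windows was 56.2%, and their median mean count was 204. In deciles 9 and 10 of mean count this share was 56.2% and 78.9%, with medians of -0.34 and -0.43. Zinc finger genes, many of which encode DNA-binding repressors, had 53 of 74 lower and a median of -0.49. Solute carriers, the transporters of small molecules across membranes, had 46 of 67 lower, 3 higher and a median of -0.35. In other windows the same families had medians of -0.15, -0.32, -0.24, -0.39, -0.29 and -0.10, in the order named.

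Tissue-restricted and clustered families gave smaller medians. Replication-dependent histone genes, which supply new chromatin in S phase, had 13 of 39 lower, 2 higher and a median of -0.12, against -0.24 in other windows. Only 14 of 179 olfactory receptor genes and 12 of 137 keratin genes had a gene-end peak. The olfactory receptor peaks had a median of -0.20 with 3 of 15 lower, and the keratin peaks a median of -0.11 with 1 of 14 lower and 2 higher. Genes of the epidermal differentiation cluster had 3 of 15 lower and a median of -0.23. The clustered protocadherins, adhesion proteins of neurons, had 5 of 16 lower and a median of -0.33, and the HLA genes, which present peptides to T cells, had 5 of 16 lower and a median of -0.29. Median mean counts were 26.4 for olfactory receptor and 31.8 for keratin peaks against 317 to 448 for the 4 complexes above, so fewer of the former could pass the test at a given fold change. Among all gene-end peaks of gene-dense windows in deciles 3 and 4 of mean count, 13.4% and 11.2% were lower. Their medians were -0.23 and -0.18. Whether a family differed from other gene-end peaks of equal strength was not tested.

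**Figure D5:**
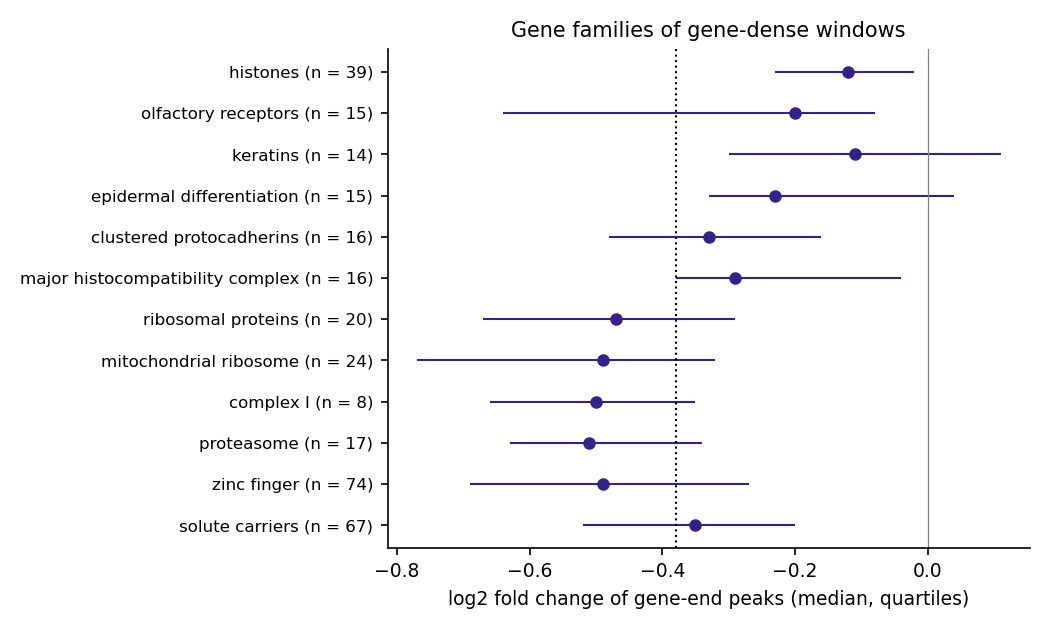
Median and quartiles of the log2 fold change (horizontal axis, sorbitol over vehicle) of gene-end peaks in gene-dense windows, by gene family, with the number of tested peaks. The dotted line is the median of all gene-end peaks of gene-dense windows, -0.38. Ribosomal, mitochondrial and proteasome genes lie at -0.47 to -0.51 and histones at -0.12.

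Among the ribosomal protein genes the peak at an end of RPS18, which also lies at B3GALT4 and WDR46, had the smallest p-value. It held 43.7, 40.3, 38.4 and 41.5 CPM in vehicle and 23.4, 24.1, 22.7 and 25.6 CPM after sorbitol (log2 fold change -0.85 ± 0.09, adjusted p = 6.64e-11). The RPS26 promoter, printed above, had the highest level of the family, with 54.3, 61.7, 55.0 and 52.2 CPM in vehicle and 37.3, 36.2, 34.3 and 39.1 CPM after sorbitol (-0.69 ± 0.08, adjusted p = 7.44e-09). Both peaks fell with separate groups. The MRPL9 promoter, of a protein of the large mitochondrial ribosomal subunit, held 27.6, 29.5, 26.2 and 25.2 CPM in vehicle and 19.9, 16.3, 15.4 and 15.1 CPM after sorbitol (-0.79 ± 0.10, adjusted p = 1.41e-08).

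The promoter shared by SIRT3, a mitochondrial deacetylase, and PSMD13, a proteasome subunit, had 35.7, 38.1, 34.7 and 37.1 CPM in vehicle and 21.4, 26, 20.9 and 20.8 CPM after sorbitol (-0.79 ± 0.09, adjusted p = 1.73e-09). At the VPS9D1 and ZNF276 promoter the levels were 80.4, 70.4, 72.1 and 74.9 CPM in vehicle and 39.1, 40.1, 45.3 and 39.1 CPM after sorbitol (-0.95 ± 0.08, adjusted p = 2.27e-13). SLC25A10, which encodes the mitochondrial dicarboxylate carrier, had 44.2, 35.9, 41.1 and 40 CPM in vehicle and 25.4, 22.9, 19.9 and 23.1 CPM after sorbitol (-0.90 ± 0.09, adjusted p = 4.07e-11). In all 3 every sorbitol library was below every vehicle library. Other strong promoters of these families fell less, with log2 fold changes of -0.66 at TEPSIN and NDUFAF8, -0.63 at MRPL51 and NCAPD2, -0.53 at ZNF687 (the highest-level zinc finger peak, 141 ± 4.67 CPM in vehicle), -0.34 at PSMA5, -0.34 at SLC4A2 and CDK5 and -0.22 at DALRD3 and NDUFAF3. The PSMA5 and SLC4A2 calls were lost with the loess offset (-0.12 and -0.13) and with contig factors (-0.39 and -0.39). The ZNF687 call was lost with contig factors only, at a fold change of similar size (-0.58, adjusted p = 0.0718). The DALRD3 call was lost with the loess offset (-0.02), gene-end factors (-0.04), contig factors (-0.26), library totals (-0.14) and a minimum mean count of 50 (-0.13). It was also lost without vehicle 1, vehicle 2, sorbitol 1 or sorbitol 3, where it lay between -0.23 and -0.18.

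At the clustered families, the histone peak with the smallest p-value lay between H2AC15 and H2BC15, with 25.2, 22.1, 25.6 and 22.4 CPM in vehicle and 15.5, 15.1, 15.6 and 16.2 CPM after sorbitol (-0.69 ± 0.10, adjusted p = 2.35e-07). The strongest histone peak, at H2BC11 and H2AC11, overlapped between groups, with 110.4, 124, 106 and 100.5 CPM in vehicle and 101, 103, 89.0 and 104 CPM after sorbitol. Its call (-0.23 ± 0.08, adjusted p = 0.0229) was lost with the loess offset (-3.24e-04), gene-end factors (-0.05), contig factors (-0.28), library totals (-0.14), a minimum mean count of 50 (-0.13) and without vehicle 1, vehicle 2 or sorbitol 3 (-0.22 to -0.16). In the HLA family the HLA-E peak fell from 36.4 ± 2.28 to 28.9 ± 1.72 CPM (SD, n = 4; -0.41 ± 0.09, adjusted p = 2.35e-04), a call lost with contig factors (-0.47, adjusted p = 0.183). The HLA-C promoter had 36.1, 36.0, 32.1 and 33.9 CPM in vehicle and 34.3, 34.7, 32.9 and 34.1 CPM after sorbitol, a difference within the spread of the libraries (-0.10 ± 0.08, adjusted p = 0.383) that turned to 0.07 with gene-end factors and with the loess offset.

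Of the protocadherin promoters PCDHGC3 fell from 12.3 ± 1.23 to 9.75 ± 0.950 CPM (-0.42 ± 0.12, adjusted p = 0.00591). The call was lost with gene-end factors (-0.25, adjusted p = 0.104) and contig factors (-0.48, adjusted p = 0.187). PCDHGC4 overlapped between groups, with 13.7, 13.5, 14.4 and 12.8 CPM in vehicle and 13.1, 14.3, 10.2 and 13.6 CPM after sorbitol (-0.16 ± 0.11, adjusted p = 0.292), and the value was 0.00931 with gene-end factors. KRT8 and KRT18 encode the keratin pair of simple epithelia found in HEK293 cells. A peak at the start of KRT18 also covered the outermost RefSeq start of KRT8, and starts within the KRT8 span were not examined. This peak held 23.4, 24.6, 20.2 and 20.7 CPM in vehicle and 20.1, 24.4, 23.9 and 25.8 CPM after sorbitol, with no detectable difference (0.00531 ± 0.10, adjusted p = 0.976) and a sign that varied with the scaling. A peak at the other end of KRT8 rose, from 4.93, 4.08, 4.89 and 4.74 CPM to 7.03, 9.08, 7.11 and 6.90 CPM (0.61 ± 0.15, adjusted p = 0.00170), a call that was lost with contig factors (0.56, adjusted p = 0.128). The olfactory receptor peak with the smallest p-value, at OR1F1, also covered tRNA genes and fell from 23.7 ± 1.96 to 13.6 ± 2.21 CPM (-0.88 ± 0.11). In the epidermal cluster the shared promoter of S100A13 and CHTOP, a broadly active mRNA export gene, gave -0.57 and that of S100A1 gave -0.30. The former lost its call with contig factors (-0.62, adjusted p = 0.0596). The latter lost it with contig factors (-0.35, adjusted p = 0.340), gene-end factors (-0.12, adjusted p = 0.204) and the loess offset (-0.10, adjusted p = 0.289).

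Single peaks were then ranked in each place, among those that changed at least 2-fold with separate groups. Whether or not the groups were separate, 77 of 3359 tested gene-end members fell at least 2-fold and 17 rose. Of all 25203 tested gene-end peaks 333 fell and 422 rose by that much. Inside genes 93 of 2875 members fell and 62 rose, against 498 and 4415 of all 65554. Between genes 35 of 1331 members fell and 24 rose, against 310 and 1989 of all 38730. Of gene-end peaks 74 qualified among the lower ones. The smallest p-value was at C12orf57 and RNU7-1, the gene of the U7 small nuclear RNA that processes histone mRNA, with 111, 107, 113 and 102 CPM in vehicle and 53.8, 56.5, 49.3 and 55.5 CPM after sorbitol (-1.09 ± 0.08, adjusted p = 3.45e-16). The next 3 lay on tRNA genes, which RNA polymerase III transcribes. At the TRS-AGA2-6 cluster (chr17:8226051-8227161, GRCh38) the levels were 43.6, 39, 32.6 and 33.4 CPM in vehicle and 13.5, 17, 14.7 and 14.3 CPM after sorbitol (-1.40 ± 0.10, adjusted p = 6.53e-16). At TRK-CTT4-1 and TRP-AGG1-1 the log2 fold change was -1.30 ± 0.11, and at TRP-AGG6-1 and TRR-CCT3-1 it was -1.25 ± 0.10. These genes have near-identical copies elsewhere, so the assignment of their reads is uncertain.

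Of gene-end peaks that rose, 17 qualified. At TRIM72, which encodes a membrane repair protein of muscle, the peak held 0.920, 0.690, 0.857 and 0.949 CPM in vehicle and 4.17, 3.19, 4.25 and 4.18 CPM after sorbitol (2.12 ± 0.25, adjusted p = 4.43e-09). It lay in chr16:31000001-32000000, a window that fell as a whole (-0.38 ± 0.04). At the start of TOR4A (chr9:137276801-137277106) the levels were 1.90, 2.07, 2.02 and 1.36 CPM in vehicle and 4.51, 4.14, 3.90 and 4.46 CPM after sorbitol (1.12 ± 0.21, adjusted p = 5.64e-05). The other 2 were at LOC124900644 inside PCGF3 (1.37 ± 0.26) and at the pseudogene RN7SL764P inside NHEJ1 (2.03 ± 0.38), the latter with a mean of only 12.8 counts. All 4 were weak peaks, whereas the lower ones above were strong.

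Inside genes 55 peaks qualified as higher. PPP1R10, a regulatory subunit of protein phosphatase 1, had a peak (chr6:30602598-30603126) 2185 bp from its end with 1.90, 1.90, 2.57 and 1.69 CPM in vehicle and 5.03, 5.81, 6.76 and 5.64 CPM after sorbitol (1.43 ± 0.19, adjusted p = 1.02e-07). Peaks in ELAPOR1 (1.73 ± 0.28), DPEP1, a kidney membrane dipeptidase (1.97 ± 0.33), and ITGAM, a leukocyte integrin (1.60 ± 0.27), also rose, from 0.841, 0.518 and 0.908 CPM in the vehicle means to 3.01, 2.18 and 2.93 CPM. ITGAM and TRIM72 lie in the same window. Of 82 peaks inside genes that qualified as lower, that in FBXL19, which encodes a CpG-binding F-box protein, had the smallest p-value (chr16:30927850-30928519). It held 34.4, 36.4, 34.1 and 32.0 CPM in vehicle and 17.9, 17.1, 15.6 and 13.4 CPM after sorbitol (-1.18 ± 0.10, adjusted p = 3.66e-14). In SPNS2, a sphingosine-1-phosphate transporter, a peak fell from 11.7 ± 0.642 to 3.77 ± 0.957 CPM (-1.72 ± 0.15). Peaks in EMILIN1 (-1.11 ± 0.10) and TOB2 (-1.0 ± 0.10) fell as well.

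Between genes 23 peaks qualified as higher and 32 as lower. The higher peak with the smallest p-value lay 22575 bp from KRT8 (chr12:52873812-52874616), with 6.44, 8.51, 6.66 and 10.4 CPM in vehicle and 19.8, 16.9, 15.5 and 18.7 CPM after sorbitol (1.07 ± 0.12, adjusted p = 2.30e-09). Others lay near RAB26 (1.65 ± 0.23), CPNE7 (1.38 ± 0.21) and MXRA7 (1.1 ± 0.20). The lower peak with the smallest p-value lay 1879 bp from ASB16 (chr17:44168337-44168825), with 15.6, 16.5, 16.1 and 15.9 CPM in vehicle and 6.68, 4.86, 6.07 and 6.20 CPM after sorbitol (-1.51 ± 0.12, adjusted p = 6.06e-14). A peak 5156 bp from CDC25A, a phosphatase that drives the cell cycle, fell from 14.1 ± 1.19 to 6.30 ± 1.12 CPM (-1.23 ± 0.13), and another fell near EIF3CL (-1.49 ± 0.17).

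Windows close to gene-dense windows were mostly lower too. Of 112 windows 1 Mb away from one, 93 were lower, with a median of -0.26. Restricted to those with under 10 genes, 25 of 34 were lower, with a median of -0.21. The median of windows with under 10 genes was -0.17 at 2 Mb, -0.18 at 3 Mb, -0.15 at 4 Mb, -0.06 at 5 Mb and 0.00713 farther away. Of the farther ones 490 of 1894 were lower. Neighbouring windows are not independent of each other, and the differences between these distances were not tested. The distances were also not compared within chromosomes. Peaks outside gene-dense windows had a median of -0.26 on chromosome 17 and 0.28 on chromosome 13, which had no gene-dense window.

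The contrast was seen on each chromosome with gene-dense windows. The median of gene-dense peaks was below that of other peaks on all 18, and within a place on 17 of 18 each time. The exceptions were gene ends on chromosome 21 (-0.19 against -0.24), peaks inside genes on chromosome 5 (0.24 against 0.15) and intergenic peaks on chromosome 15 (-0.03 against -0.05). Chromosomes 16 and 17, with 10 and 17 gene-dense windows, had gene-dense medians of -0.43 and -0.43, and their other windows had -0.21 and -0.26. On chromosome 2, with 4 gene-dense windows, the medians were -0.10 and 0.06.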

How the data were processed

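Per the labels' protocols, libraries were made by Omni-ATAC and sequenced as paired ends; RNA-seq, CUT&Tag and Hi-C data were not used here. The authors deposited raw counts per peak for 8 libraries. Per the submitters' processing notes, tools included Trim Galore 0.6.10, BWA 0.7.17, SAMtools 1.22 and MACS2 2.2.9.1, with builds hg38 and GRCh38. How peaks were merged, and whether reads or fragments were counted, is not given in the sources used here. Genes came from the RefSeq table of GRCh38.p14, with strand from its promoter table. Peaks were filtered with filterByExpr (minimum count 10, total 15) and tested with edgeR 4.0.16 in R 4.3.3 (quasi-likelihood, TMM factors, treatment as the only term, Benjamini-Hochberg over all peaks or all windows, threshold 0.05). DESeq2 1.42.0 was an alternative. Shares per library were compared by exact permutation over libraries. CPM values use library totals, whereas fold changes use TMM factors; the median of all peaks was 0.01 with TMM and 0.09 with totals. Scripts were tested on simulated data. Named peaks were the 4 with the smallest p-values per place and direction (at least 2-fold, separate groups) and, per family, those with the smallest p-value and highest CPM. Named windows were the 5 with most genes, the 4 with the smallest p-values and those with the lowest and highest median. The members and lists were chosen with earlier results of these data known. Reads carry no molecular identifiers, so depth describes counting error only. No genome sequence was used, so base content of peaks was not analysed here. A few items that these rules select are not reported here.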

Additional observations from a re-analysis of the deposited data

Results flagged for a closer look

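In 6 of the 126 groups of 4 libraries examined, 1 library lay far from the other 3 by Dixon's test, which flags about 1 group in 20 by chance (6.30 expected). Of these, 4 were sorbitol 2. It had 3.19 CPM at the TRIM72 promoter (others 4.17 to 4.25), 9.08 CPM at the KRT8 stop (others 6.90 to 7.11), 26 CPM at the SIRT3 and PSMD13 promoter (others 20.8 to 21.4) and 807 CPM in chr16:1-1000000 (others 769 to 774). Vehicle 2 had 43.4 CPM at the CHTOP promoter (others 36.9 to 38.0), and sorbitol 3 had 45.3 CPM at VPS9D1 (others 39.1 to 40.1). In each of these 6 results the groups remained separate.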

How the results depend on the processing

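With factors from contig peaks, 130 member peaks were higher, 1186 lower and 0 windows lower. With gene-end factors there were 706 higher and 1996 lower peaks and 6 higher windows, and the value of chr11:124000001-125000000 turned to 0.17 (0.08 with library totals alone, which gave 1 higher window). At an adjusted p under 0.01, 210 members were higher. Windows of at least 20 genes (174 windows, 12422 peaks) gave 698 higher peaks, 2 higher and 161 lower windows. A limit of 30 genes (64 windows, 4955 peaks) gave 200 higher peaks and 61 lower windows. Windows shifted by 0.5 Mb gave 1 higher window.

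Shared replicate numbers marked no pairing: correlations of same-numbered deviations were 0.00600, 0.00739, -0.00432 and -0.0944. With the replicate block 333 members were higher and 2904 lower, and the values per library kept their size (-1.95, -2.05, -1.29 and -0.965 percentage points, and -0.233, -0.323 and -0.293 at equal strength), with a sign-flip exact p of 0.125, the smallest possible. Averaging libraries that share the first number in their names left the same differences, with an exact p of 0.333, also the smallest possible. Libraries 1 and 2 of each group share that number, and so do 3 and 4. The overall shares split by it, with 10.8% and 10.9% against 10.4% and 10.3% in vehicle. After sorbitol they were 8.73% and 8.79% against 8.46% and 8.61%. The intergenic sorbitol shares did not split this way. The exact permutation p of 0.0286 treats all libraries of a group as separate units.

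Without vehicle 4 and sorbitol 4 the differences were -2.04, -2.02, -1.27, -1.15, -0.228, -0.304 and -0.322 (exact p = 0.100, the smallest possible). With any single library left out there were 296 to 370 higher and 2688 to 3091 lower members, 93 to 98 lower windows and 0 higher, shares of -2.06 to -1.85, -2.16 to -1.95, -1.36 to -1.24 and -1.10 to -0.886 percentage points, and -0.247 to -0.219, -0.342 to -0.303 and -0.312 to -0.276 at equal strength. Without sorbitol 1 or sorbitol 3 the intergenic share gave -0.948 and -0.928 with an exact p of 0.0571. Of 931 values of 47 named peaks under 20 alternatives, 901 kept their side of the threshold and 30 lost it. The sign changed in 13 values of 3 peaks (HLA-C, PCDHGC4 and the peak at the KRT18 start), none past the threshold in either fit. The cause of these dependences was not tested. Weak peaks limit the calls: the weakest decile had a median mean count of 16.5.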
